A study of Rattus norvegicus with 2 samples.

Results

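The cells described here are the non-cycling hippocampal microglia of the embryonic rat that gave the largest share of their RNA to the receptor genes P2ry12, P2ry13, Tmem119 and Gpr34. They came from 2 droplet single-cell RNA-seq libraries of flow-sorted microglia, one from embryos with prenatal exposure to the synthetic glucocorticoid dexamethasone and one from embryos without it (control). Each library pooled the hippocampi of 7 male embryos at gestational day 20, and the strain, the dose, the days of exposure and the sort marker are not given in the sources used here. Each group was 1 library, so exposure and library cannot be told apart, no test was made between them, and every interval below is a 95% interval that covers counting error only.

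The high cells were chosen in steps. Cells with at least 200 detected genes and at most 20% mitochondrially encoded UMIs (unique molecular identifiers, the counted molecules) were kept. Of these, microglia were the cells with at least 0.8% of UMIs from C1qa, C1qb and C1qc and under 0.15% from the border macrophage genes Mrc1, Pf4, Ms4a7 and Stab1. Cells with a UMI of Top2a, Mki67, Ccnb1, Cdc20, Mcm5 or Mcm6 were set aside as cycling. This left 4303 non-cycling microglia, and the top 25% of them by the summed UMI share of the 4 receptor genes are called high cells. There were 1076 high cells of 12670 barcodes (8.49%), 272 from dexamethasone and 804 from control. The remaining 3227 non-cycling microglia, 1158 and 2069, are called the rest.

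Microglia are the resident macrophages of the brain. They derive from yolk sac progenitors, settle in the brain before birth and mature over weeks, during which purinergic receptors, Tmem119 and other genes of surveying microglia come on under TGF-beta, CSF1 receptor and IL-34 signals. P2ry12 encodes the ADP receptor that steers microglial processes toward injured cells, P2ry13 a related ADP receptor, Gpr34 a lysophosphatidylserine receptor and Tmem119 a transmembrane protein used as a microglial marker. In the developing brain another microglial state, found along axon tracts and marked by Spp1, Gpnmb, Igf1 and Lpl, shares genes with microglia seen in disease.

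P2ry12, P2ry13 and P2ry14 lie together inside the span of Med12l in the RefSeq annotation of the assembly GRCr8, while Gpr34 is on the X chromosome. Because these genes overlap and the strand setting of the counting is not given, reads of Med12l and of the receptors inside it cannot be told apart with certainty. P2ry13 and Gpr34 helped to choose the high cells, so both are high in them by that choice, while P2ry14 took no part in it. Windows from 250 bases before to 50 after the RefSeq start are shown for the receptor genes of both loci found in the table. They are P2ry13 at chr2:145622735-145623034, P2ry14 at chr2:145538461-145538760 and Gpr34 at chrX:11785787-11786086, all on the minus strand of GRCr8. Capitals mark a match to GAGGAA, the core of the site of the myeloid factor PU.1, searched on both strands, which reads TTCCTC on the other strand.
P2ry13: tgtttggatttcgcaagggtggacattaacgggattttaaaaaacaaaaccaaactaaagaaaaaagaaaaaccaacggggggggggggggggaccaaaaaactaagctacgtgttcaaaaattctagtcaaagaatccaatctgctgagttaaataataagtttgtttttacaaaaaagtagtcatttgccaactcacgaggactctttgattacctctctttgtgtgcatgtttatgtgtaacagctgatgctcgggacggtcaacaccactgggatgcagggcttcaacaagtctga
P2ry14: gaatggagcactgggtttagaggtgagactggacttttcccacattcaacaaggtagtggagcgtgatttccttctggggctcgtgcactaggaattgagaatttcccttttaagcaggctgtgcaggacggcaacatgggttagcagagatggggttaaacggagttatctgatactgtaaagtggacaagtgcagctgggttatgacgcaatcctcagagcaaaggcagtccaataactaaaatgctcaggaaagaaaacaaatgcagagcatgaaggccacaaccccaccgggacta
Gpr34: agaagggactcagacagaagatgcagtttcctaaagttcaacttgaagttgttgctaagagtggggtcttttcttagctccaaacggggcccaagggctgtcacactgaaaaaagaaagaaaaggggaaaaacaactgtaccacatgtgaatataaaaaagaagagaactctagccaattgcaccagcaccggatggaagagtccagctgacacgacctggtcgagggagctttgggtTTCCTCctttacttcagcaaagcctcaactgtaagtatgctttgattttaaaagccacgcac
A match was found in the Gpr34 window and none in the other two. The table also holds 2 windows of Med12l, on the plus strand, which held 0 matches and are not shown, since Med12l is no receptor gene. Of 27457 windows of 300 bases in the table, 27.5% held the match, and of the 6690 windows of genes measured in these cells 26.7% did. It was present in 32.2% of the 342 windows of genes higher in the high cells and in 32.7% of the 168 windows of genes lower in them.

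The receptor share had no gap between high cells and the rest. The cut fell at 0.102% of UMIs, and the high cells reached 0.456% in dexamethasone and 0.455% in control. The median high cell carried 9 (dexamethasone) or 8 (control) receptor UMIs, against 4 in the rest of each library. Just inside the cut, 68 dexamethasone and 147 control cells had shares up to 0.113% and 0.112%, with medians of 8 and 7 receptor UMIs. The same numbers of cells just outside it had shares down to 0.0945% and 0.0941%, also with medians of 8 and 7 receptor UMIs, so that a single UMI separates many neighbours. The high cells were 19% (17.0 to 21.2) of the non-cycling microglia in the dexamethasone library and 28.0% (26.3 to 29.7) in the control library. That share is another reading of the 4 receptor genes and not the abundance of a cell type.

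**Figure D1:**
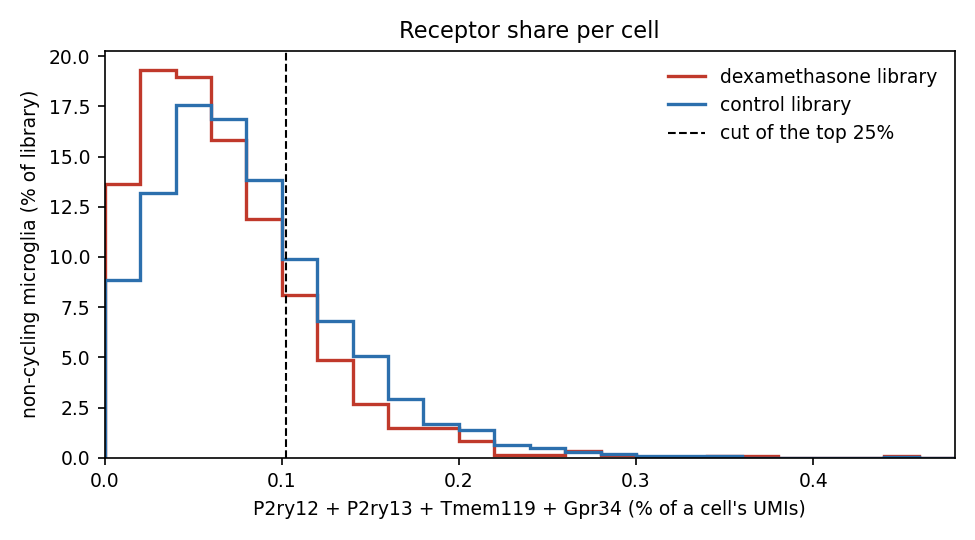
Share of UMIs from P2ry12, P2ry13, Tmem119 and Gpr34 per non-cycling microglial cell (x axis, % of the cell's UMIs) against the percent of cells of each library (y axis), with the cut as a dashed line. Both libraries form a single continuous distribution, with 19% of dexamethasone and 28.0% of control cells at or above the cut of 0.102%.

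High cells were shallower than the rest, with medians of 6456.5 UMIs for dexamethasone and 5671.5 UMIs for control, against 8505 and 7404. Mitochondrially encoded genes took a median of 3.02% of UMIs in dexamethasone and 6.27% in control high cells, close to the 2.98% and 6.14% of the rest. The 2 libraries shared 5 barcodes, and 1 high cell carried such a barcode. The same cut was reached by 12.2% of dexamethasone and 18.9% of control cycling microglia, and by 4.91% and 6.44% of cells gated as border macrophages. Of neuron-like cells 0 of 71 and 1.03% of 292 reached it, and of erythroid-like cells 0 of 103 and 0 of 132. Csf1r, carried by brain macrophages of every kind, was at 2419 and 2207 CPM (UMIs summed over the cells and scaled to their total) in the high cells and at 103 and 108 CPM in erythroid-like cells. It was at 2273 and 2239 CPM in the cells gated as border macrophages, so Csf1r does not tell the high cells from those, and the name microglia rests on the gate.

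The 4 receptors chose the cells, so their levels are given as a description. P2ry12 was at 433 CPM in dexamethasone and 470 CPM in control high cells, against 134 and 164 CPM in the rest. P2ry13 was at 200 and 231 CPM in the high cells, against 67.0 and 77.6 CPM. Tmem119 was at 188 and 226 CPM, against 57.4 and 67.6 CPM. Gpr34 was at 558 and 506 CPM, against 227 CPM in the rest of both libraries. It gave the largest part of the receptor UMIs of the high cells, 40.5% in the dexamethasone and 35.3% in the control library. All 4 receptors were detected together in 39.0% of dexamethasone and 38.9% of control high cells, against 9.15% and 10.5% of the rest.

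How far the 4 receptors go together was read by choosing cells on the other 3 genes and reading the gene left out. P2ry13 was then at 148 CPM in dexamethasone and 170 CPM in control high cells, against 75.3 and 94.9 CPM in the rest, log2 ratios of 0.98 (0.78 to 1.17) and 0.84 (0.72 to 0.97). Tmem119 gave 0.83 (0.61 to 1.04) and 0.77 (0.64 to 0.90). P2ry12 gave 0.73 (0.58 to 0.87) and 0.59 (0.51 to 0.68). Gpr34 had the smallest ratios of the 4, 0.40 (0.27 to 0.52) and 0.35 (0.27 to 0.43). In every case the ratio was above 0 in both libraries and below that of the gene when it took part in the choice, which was 1.16 to 1.74. When cells were chosen on a random part of their UMIs and read in the other part of equal size, the log2 ratios lay between 0.47 for Gpr34 in the control library and 1.24 for Tmem119 in the dexamethasone library.

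**Figure D2:**
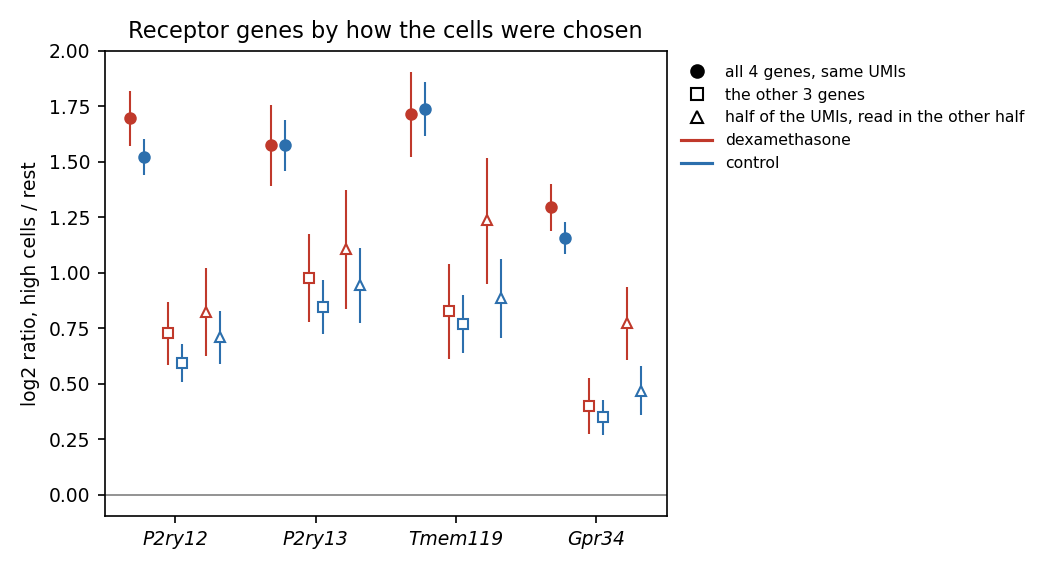
Log2 ratio of CPM, high cells over the rest (y axis), for each receptor gene (x axis) and library, with 95% counting intervals. Filled circles read the gene in cells it helped to choose, squares in cells chosen on the other 3 genes, and triangles in the UMIs that did not choose the cells. Left-out ratios are smaller but above 0 for all 4 genes, from 0.35 to 0.98.

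After each non-cycling cell was thinned to 3800 UMIs, with 27 of 272 dexamethasone and 117 of 804 control high cells left out as shallower, P2ry12 had a UMI in 81.6% and 83.4% of high cells and in 38.6% and 46.7% of the rest. Before thinning these shares were 90.4% and 92.4%, and 61.7% and 67.5%. In thinned neuron-like cells P2ry12 had a UMI in 0 of 39 and 0 of 111, and in erythroid-like cells in 2.94% and 3.05%. Left out as shallower were 32 of 71 dexamethasone and 181 of 292 control neuron-like cells. The erythroid-like cells had medians of 18231 and 21306 UMIs before thinning. The level of free RNA was not measured.

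Against the rest, many other genes of surveying microglia were higher in the high cells and many axon-tract genes were lower. Summed, the homeostatic list took 4.46% of UMIs in dexamethasone and 4.74% in control high cells, against 3.83% and 4.71% in the rest. The axon-tract list took 2.20% and 2.28%, against 2.23% and 2.40%. Its share in the median cell was larger in dexamethasone high cells, 2.04% against 1.89%, and smaller in control high cells, 2.05% against 2.12%. Genes with at least 50 UMIs in the non-cycling microglia of each library were compared, 8600 in all without the 17 genes of the gates and the rule. A gene is called higher or lower when it differed at least 1.3-fold in the same direction in both libraries with intervals that leave out 0. By this rule 454 genes, 5.28% of those measured, were higher in the high cells and 216, or 2.51%, were lower. High cells and the rest were cut from the same cells by a measured score, so these counts describe the cut and are no test.

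Of the homeostatic microglia list, 17 of 35 measured genes were called higher and 0 lower. The median log2 ratio of the list was 0.42, against 0.08 over all measured genes. Csf1r, the receptor for CSF1 and IL-34 on which microglia depend, was at 2419 CPM in dexamethasone and 2207 CPM in control high cells, against 1690 and 1632 CPM in the rest. Cx3cr1, the fractalkine receptor, was at 442 and 548 CPM, against 290 and 358 CPM. Golm1, a Golgi membrane protein, was at 281 and 301 CPM, against 143 and 184 CPM, with log2 ratios of 0.97 (0.83 to 1.12) and 0.71 (0.62 to 0.80).

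Enzymes and transporters of the list followed the same direction. Gal3st4, a sulfotransferase, was at 172 and 227 CPM in the high cells, against 95.4 and 119 CPM. Lpcat2, which makes platelet-activating factor, was at 245 and 229 CPM, against 137 and 136 CPM. Slc2a5, the fructose transporter, Slco2b1, an organic anion transporter, Ltc4s, leukotriene C4 synthase, and Ptgs1, cyclooxygenase-1, were also called higher. The adhesion receptor Adgrg1 had the largest ratio of the list at a low level, 14 and 13.1 CPM against 2.45 and 5.24 CPM. Several of the most abundant members did not pass the rule. Cst3, encoding cystatin C, was at 27094 and 28451 CPM in the high cells, against 25299 and 32342 CPM, so that its direction differed between the libraries. Trem2, an activating lipid receptor, was at 1013 and 1171 CPM, against 1055 and 1236 CPM.

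Of the purinergic signalling list, without the rule genes, 4 of 9 measured members were called higher and 0 lower. Among these 4 is Med12l, which is no receptor gene and spans the rule genes P2ry12 and P2ry13. Its reads cannot be told from theirs with certainty, so its call may come from the choice of the cells. P2ry14, the UDP-glucose receptor, was at 79.6 and 79.4 CPM in the high cells, against 38.0 and 39.2 CPM, log2 ratios of 1.07 (0.79 to 1.34) and 1.02 (0.83 to 1.2). Med12l, the gene around it, was at 57.5 and 49.9 CPM, against 23.6 and 23.8 CPM. P2ry6, the UDP receptor for phagocytosis, was at 168 and 205 CPM, against 108 and 128 CPM. Entpd1, the ectoenzyme CD39 that breaks down ATP and ADP, was at 116 and 114 CPM, against 75.8 and 75.1 CPM. The nucleoside transporter Slc29a1, outside the list, was at 53.8 and 41.5 CPM, against 25.8 and 28.4 CPM. The ATP-gated channel P2rx4 was not called, with 99.5 and 103 CPM against 91.4 and 106 CPM. Gpr171, also inside the Med12l span, had 4 UMIs over all high cells, too few to compare.

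Of TGF-beta pathway genes, 6 of 15 were called higher and 0 lower, with a median of 0.40. They were the type I receptor Tgfbr1 (124 and 111 CPM, against 76.3 and 72.7 CPM), the integrin chain Itgav that activates latent TGF-beta, and the feedback genes Smad7, Ski, Skil and Pmepa1. Smad7, an inhibitor induced by the pathway, was at 79.6 and 90.2 CPM, against 58.7 and 57.8 CPM. The ligand Tgfb1 was at 302 and 289 CPM, against 287 CPM in the rest of both libraries, and was not called.

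Among 23 microglial transcription factors, 4 were called higher and 2 lower. Mef2a was at 281 and 293 CPM, against 204 and 211 CPM, Maf at 252 and 277 CPM, against 183 and 211 CPM, and Ets1 and Nfatc2 were also called higher. Mitf, a regulator of lysosomal genes, and Cebpa were called lower, Mitf with 19.9 and 13.9 CPM against 30.6 and 25.2 CPM. The lineage factors Spi1, encoding PU.1, at 237 and 293 CPM against 253 and 284 CPM, and Sall1, at 260 and 268 CPM against 203 and 214 CPM, were not called.

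The 15 named genes of largest ratio above 0 included several that are in none of the lists. Sema4c, a semaphorin of axon guidance, was at 44.6 and 50.5 CPM in the high cells, against 18.7 and 23.4 CPM, log2 ratios of 1.26 (0.87 to 1.64) and 1.11 (0.88 to 1.35). Srgap2, which shapes membrane protrusions, was at 519 and 464 CPM, against 274 and 281 CPM. Also in no list were Arhgef40, a guanine nucleotide exchange factor, Cradd, a death domain adaptor, Susd3, F11r, a junctional adhesion molecule, and the transcription factor Zfhx3. The inhibitory lectin Siglec5, also among the 15, is a member of the homeostatic list. All 15 were higher in each bin of the receptor share than in the bin below it, in both libraries. They were named for their ratio of the top bin over the other bins, so the step into the top bin follows in part from that choice.

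The axon-tract and disease-associated list gave 13 of 24 measured genes called lower and 0 higher. Their median log2 ratio over the 24 genes was -0.46. Spp1, the secreted protein osteopontin, was at 38.2 CPM in dexamethasone and 83.5 CPM in control high cells, against 532 and 473 CPM in the rest, log2 ratios of -3.80 (-4.16 to -3.46) and -2.50 (-2.65 to -2.36). A single cell gave 23.9% of the dexamethasone and 21.6% of the control Spp1 UMIs of the high cells. Gpnmb, a lysosomal membrane glycoprotein, was at 98.4 and 105 CPM, against 341 and 276 CPM. Anxa5, Csf1, Fabp5, Fabp3 and Lpl were at 11.8 to 27.6 CPM in the high cells of either library and at 49.8 to 103 CPM in the rest. Igf1, a growth factor for neurons and oligodendrocytes, was at 429 and 379 CPM, against 759 and 721 CPM. Apoe, the most abundant gene of the list, was at 14457 and 15039 CPM, against 12432 and 13982 CPM, and was not called.

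**Figure D3:**
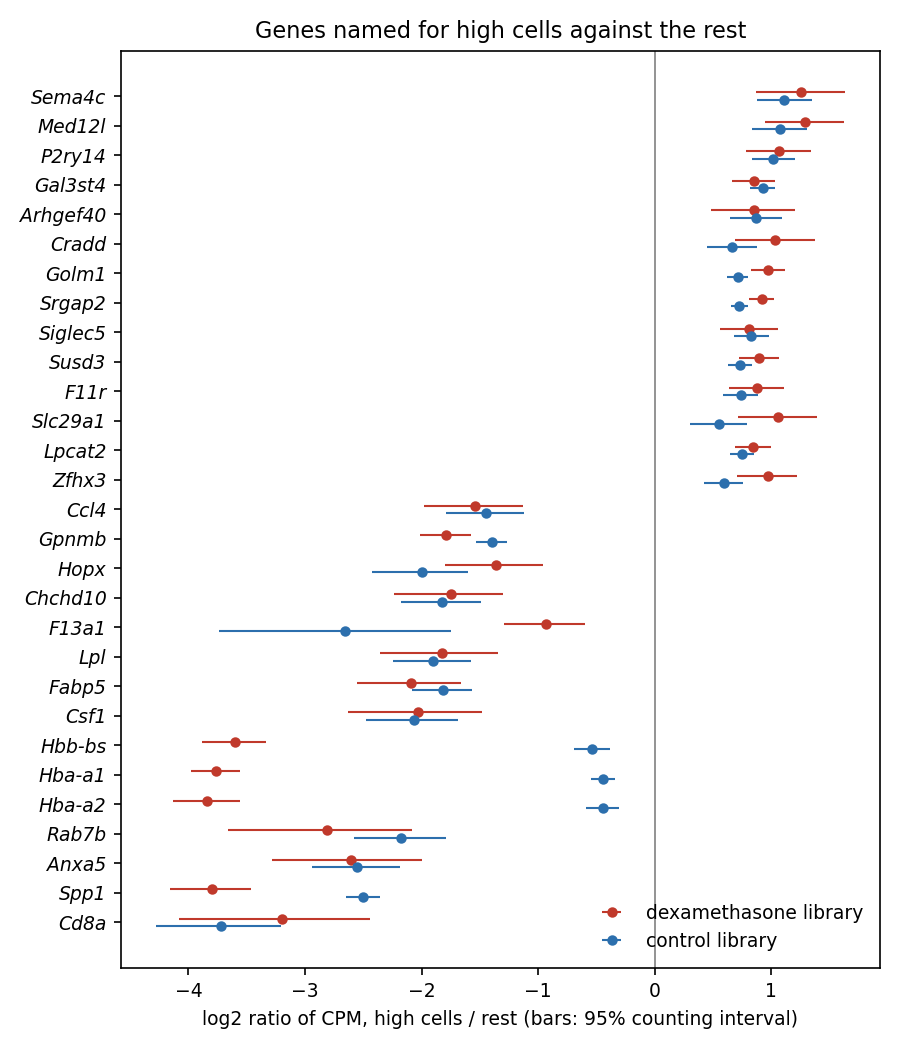
Log2 ratio of CPM, high cells over the rest (x axis), with 95% counting intervals, for 14 of the 15 highest and for the 15 lowest genes named by the rule, in each library. Genes above 0 lie between 0.55 and 1.29, and those below 0 reach -3.84, with the globin genes and F13a1 far apart between the libraries.

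Cd8a, the CD8 alpha chain known from T cells and also present on some rat macrophages, was the gene of lowest mean ratio. It was at 7.53 and 6.34 CPM in the high cells, against 69.3 and 83.5 CPM in the rest, log2 ratios of -3.20 (-4.08 to -2.45) and -3.72 (-4.28 to -3.21). It was found in 3.31% and 3.23% of high cells and in 15.3% and 14.8% of the rest. Of 5 other T cell genes, read after these values were seen, Cd3e and Cd3g had 0 UMIs in the high cells and in the rest of both libraries. Cd3d had 0 UMIs in dexamethasone and 1 UMI in control high cells, and 5 and 4 UMIs in the rest, while Cd247 had 1 and 2 UMIs, and 1 and 0 in the rest. Lck, a kinase of T cell signalling, was at 3.76 and 5.93 CPM in the high cells and at 5.09 and 5.94 CPM in the rest, where it was found in 4.32% and 4.59% of cells. Rab7b, a lysosomal GTPase, was at 8.07 and 11.9 CPM, against 56.6 and 53.6 CPM, and Hopx and Chchd10 were lower as well.

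The levels of these genes differed over the whole range of the receptor share and not at the cut alone. With the non-cycling microglia in 4 bins of equal total number, Spp1 was at 768, 501, 211 and 38.2 CPM from the lowest to the highest bin of the dexamethasone library and at 766, 460, 207 and 83.5 CPM in the control library. Csf1r was at 1361, 1808, 2045 and 2419 CPM, and at 1408, 1636, 1841 and 2207 CPM. Of the 15 lowest named genes, 10 were lower in each bin than in the bin below it in both libraries, and the exceptions were Ccl4, F13a1, Hba-a1, Hba-a2 and Hbb-bs. The 15 lowest were likewise named for their ratio of the top bin over the other bins.

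**Figure D4:**
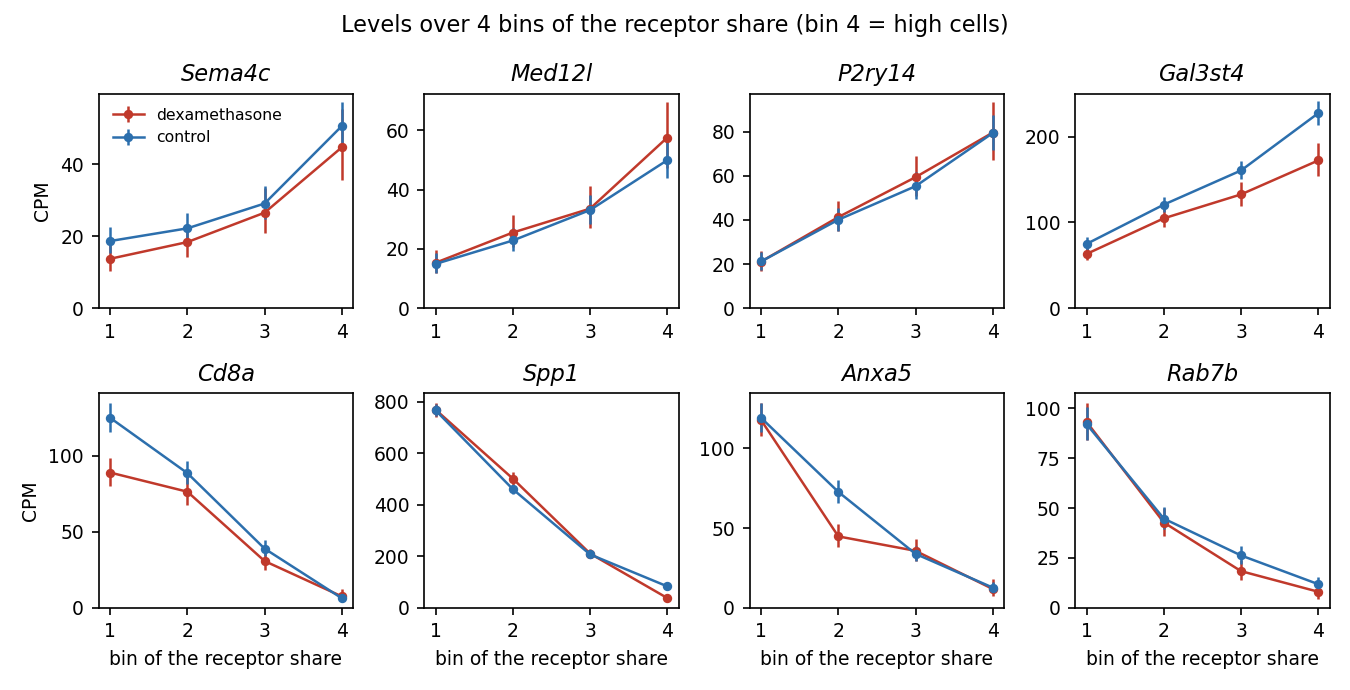
CPM (y axis, from 0) of the first 4 named genes in each direction over 4 bins of the receptor share (x axis, bin 4 holds the high cells), with 95% Poisson intervals, by library. Sema4c, Med12l, P2ry14 and Gal3st4 are higher in each following bin and Cd8a, Spp1, Anxa5 and Rab7b lower, in both libraries.

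Energy metabolism genes were mostly lower. Of nuclear genes of oxidative phosphorylation, 9 of 28 were called lower and 0 higher, 27 of 28 were below 0 in both libraries, and the median was -0.35. Cox8a, a subunit of cytochrome c oxidase, was at 799 and 704 CPM, against 1243 and 1065 CPM. Of 15 glycolysis genes, Aldoa, Ldha, Pgam1 and Pfkp were called lower and Hk2, the hexokinase known from microglia, higher, with 516 and 466 CPM against 349 and 326 CPM. Cytosolic ribosomal protein genes took 14.6% and 13.1% of UMIs in the high cells, against 16.3% and 14.2%, with 75 of 78 below 0 in both libraries and 0 called. Mitochondrially encoded genes had a median of 0.02 with 0 of 13 called. High cells were also the shallower cells, and the part of depth in these differences was not tested. In thinned cells 118 genes were called higher and 70 lower. These counts are over all genes, of which fewer were measured after thinning, and they do not show what became of these lists.

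Immune genes were mixed. Of 11 complement genes, 3 were called higher and 0 lower. Among them were Cfp, encoding properdin, at 431 and 495 CPM against 283 and 349 CPM, and Itgam, a chain of complement receptor 3. The Toll-like receptors Tlr2, Tlr4 and Tlr7 were called higher, and the chemokines Ccl3, Ccl4 and Ccl12 lower, out of 18 measured genes of the chemokine and inflammation list. Ccl3 was at 120 and 72.8 CPM, against 227 and 186 CPM. Of 23 immediate-early genes, Fos, Ier3, Dusp6, Zfp36l1 and Rhob were called higher and Egr2 and Gadd45b lower. Of 28 lysosome genes, Ctss, Ctsh and Lamp2 were called higher and Atp6v0c, a subunit of the proton pump, lower. The bridging proteins Pros1 and Mfge8, which link dying cells to phagocytes, were the called members of 17 phagocytosis genes, both higher.

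Of genes of immature or embryonic microglia, 7 of 18 were called lower and 0 higher. Mif, a cytokine, was at 271 and 223 CPM, against 451 and 353 CPM. Cycling was not read from the 6 genes used to set cells aside. Of other cell cycle genes, 0 of 21 S phase genes were called, and of 17 G2/M genes Aurka was higher and Stmn1 lower. Ccnd1, encoding cyclin D1, a driver of entry into S phase, was at 356 and 319 CPM, against 215 and 230 CPM.

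Of the markers of other cells, those of neurons, of endothelial, mural and choroid cells and of neutrophils and monocytes were low in the high cells. The border-associated macrophage list was not low, with a sum of 2075 CPM in dexamethasone and 2096 CPM in control high cells, against 2329 and 2452 CPM. The glia and oligodendrocyte precursor list summed to 225 and 253 CPM, against 291 and 302 CPM. The neuron list summed to 29.0 CPM in dexamethasone and 74.7 CPM in control high cells, with 7 and 3 of 17 matched genes at 0, against 33.9 and 95.7 CPM in the rest. The endothelial, mural and choroid list summed to 19.4 and 32.9 CPM, against 16.1 and 44.5 CPM, and the neutrophil and monocyte list to 52.7 and 57.1 CPM, against 104 and 63.6 CPM. Border macrophage genes outside the gate gave 1 called higher and 3 lower of 9, among them Lyve1 at 634 and 696 CPM, against 828 and 1011 CPM. The erythroid list summed to 343 and 534 CPM, against 3228 CPM in the rest of the dexamethasone library and 703 CPM in the rest of the control library. The globin genes Hba-a1, Hba-a2 and Hbb-bs were called lower in the high cells, but without the cell of most UMIs in each group their control ratios were 0.17, 0.19 and 0.12. The part of these cells' RNA in the differences of other genes was not tested.

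Between the libraries, the high cells differed in chemokine, immediate-early and mitochondrially encoded genes. The 4 receptor genes are not compared here, because the high cells of both libraries were taken above a single cut of their share. Over 7653 genes with at least 50 UMIs in the high cells of both libraries together, 439, or 5.74%, were at least 1.3-fold higher in the dexamethasone library and 369, or 4.82%, lower, with intervals that leave out 0. With CPM taken without mitochondrially encoded, ribosomal protein and rule genes in the total, these counts were 364 and 443. Of 34 homeostatic genes, 0 were called higher and 3 lower in the dexamethasone library, Gal3st4, Ifngr1 and Edn3. The median of the list was -0.07 on the log2 scale, against -0.16 in the rest. Ifngr1, a chain of the interferon-gamma receptor, was at 1586 CPM in dexamethasone and 2107 CPM in control high cells. In the purinergic list, with Med12l and without the rule genes, 0 of 9 were called, and in TGF-beta genes 0 of 15. The purinergic median was -0.04, against -0.21 in the rest. Counts this small, like those of the homeostatic list, cannot be told from the 5.74% and 4.82% over all genes. Genes that follow the receptor share may also be matched between the libraries by the single cut, which was not tested.

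The immediate-early list had 5 of 21 measured genes called higher in the dexamethasone library and 0 lower. Egr1 was at 59.2 CPM in dexamethasone and 28.0 CPM in control high cells, a log2 ratio of 1.08 (0.70 to 1.45), against 0.48 in the rest. Fos was at 148 and 85.9 CPM, a log2 ratio of 0.78 (0.56 to 1.01), against 0.60 in the rest. The others were Zfp36, Jund and Dusp1.

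Of 17 chemokine and cytokine genes measured between the libraries, 5 were called higher in the dexamethasone library and 0 lower. Ccl2, a monocyte chemoattractant, was at 111 and 28.6 CPM, a log2 ratio of 1.96 (1.64 to 2.28), against 0.37 in the rest. A single cell held 37.7% of its dexamethasone UMIs and another 33.6% of its control UMIs. Without the cell of most UMIs in each group, an alternative chosen after seeing the data, Ccl2 was at 69.8 and 19 CPM with a log2 ratio of 1.87 (1.48 to 2.27). Ccl7 was at 83.9 and 37.9 CPM, with 46.8% of its dexamethasone UMIs in 1 cell, and its log2 ratio of 1.15 was 0.81 without the top cells. Ccl3 was at 120 and 72.8 CPM, and Ccl12 and Ccl4 were the other called members. Ccl4 was at 27.4 and 16.8 CPM, a log2 ratio of 0.71 that turned to -1.32 when the top 33% of cells were taken and to -0.87 in thinned cells.

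Other named genes higher in the dexamethasone library were also higher there in the rest. Cideb, a lipid droplet protein, was at 93.6 and 31.7 CPM in the high cells, a log2 ratio of 1.56 (1.24 to 1.88), against 1.38 in the rest. The ratios of Grcc10, Sumo4, Atp5md, H2aj, Cpxm1, Plac8 and Ppial4d lay between 0.78 and 1.3 in the high cells and between 0.78 and 1.42 in the rest. Among genes lower in the dexamethasone library, Stmn1, a microtubule regulator, was at 54.9 and 128 CPM, a log2 ratio of -1.23 (-1.54 to -0.92), against -0.58 in the rest. Btf3 was at 47.3 and 99.6 CPM and Ncoa3, a nuclear receptor coactivator, at 40.3 and 79.4 CPM. Spp1 was at 38.2 and 83.5 CPM in the high cells, a ratio of -1.13, and 0.17 in the rest, but when cells were chosen and read on separate UMIs its ratio in the high cells was 0.03.

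**Figure D5:**
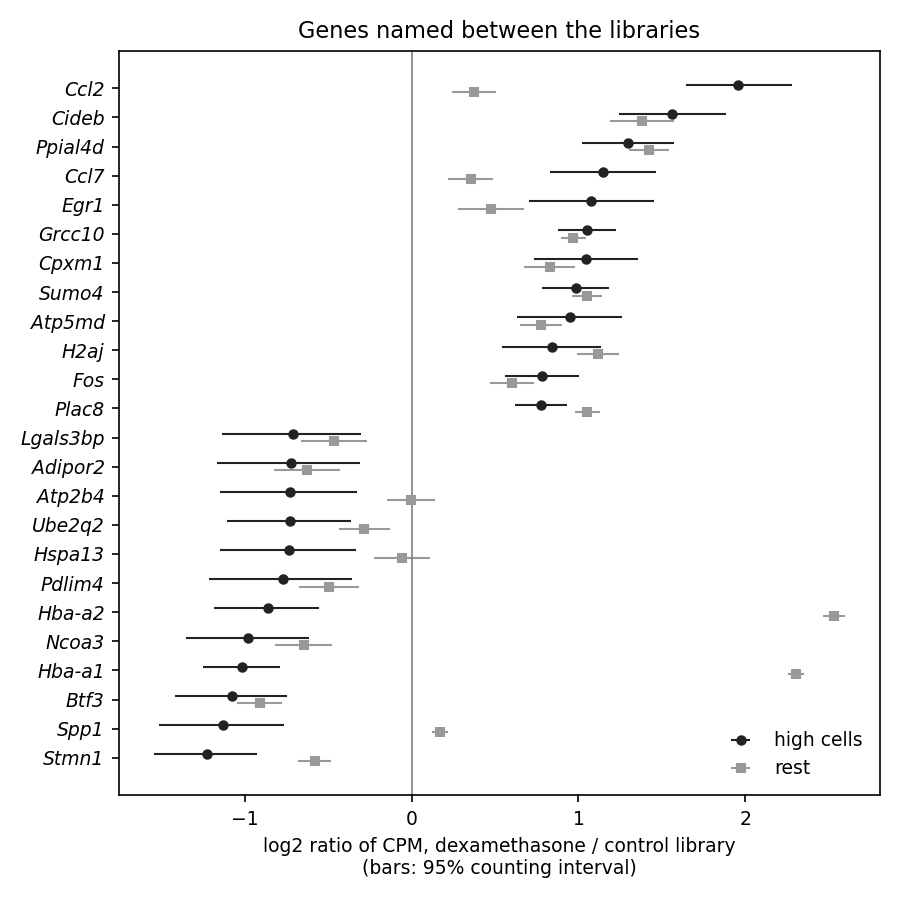
Log2 ratio of CPM, dexamethasone over control library (x axis), in the high cells (black circles) and the rest (grey squares), with 95% counting intervals, for the 12 highest and the 12 lowest named genes. Most genes lie on the same side of 0 in both groups of cells, while Spp1, Hba-a1 and Hba-a2 lie below 0 in the high cells and above it in the rest.

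Genes induced by glucocorticoids gave 1 of 14 called higher in the dexamethasone library, Dusp1, and 2 lower, Ddit4 and Cdkn1a. Over all 7653 genes 5.74% were called higher and 4.82% lower, and counts this small cannot be told from those shares. Tsc22d3, encoding the glucocorticoid-induced leucine zipper, was at 29.0 and 24.8 CPM and the receptor Nr3c1 at 37.6 and 42.6 CPM, neither called. Of 12 interferon response genes, 3 were called lower, among them Rtp4 and Igtp, and 0 higher. Igtp, an interferon-induced GTPase, was at 35.5 and 57.3 CPM. Mitochondrially encoded genes took 3.14% of the UMIs of dexamethasone and 6.20% of those of control high cells, with 12 of 13 called lower and a median log2 ratio of -1.04, the same as in the rest.

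F13a1 is the clotting factor XIII A chain, found in monocytes and border macrophages. Of the genes past the naming filters, it had the largest positive difference between the ratio in the high cells and that in the rest. The difference was 1.72 (0.75 to 2.69, normal approximation) on the log2 scale. F13a1 was at 41.9 CPM in dexamethasone and 2.05 CPM in control high cells, and at 80.2 and 12.9 CPM in the rest. The log2 ratios were 4.36 (3.40 to 5.47) and 2.64, and 25.6% of the dexamethasone UMIs of the high cells came from 1 cell. The control high cells held 10 F13a1 UMIs in all. In cycling microglia F13a1 was at 127 CPM in dexamethasone and 12.2 CPM in control, so the library difference was not particular to the high cells. Thinned shares of cells with an F13a1 UMI were 6.94% in dexamethasone and 0.437% in control high cells, and 12.3% and 1.94% in the rest. In neuron-like cells the thinned shares were 0 of 39 and 0 of 111, and in erythroid-like cells 1.96% and 0.763%. Morc3, an ATPase of the nucleus, was at 64.5 and 40.7 CPM in the high cells, and at 31.9 and 36.9 CPM in the rest.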

How the data were processed

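Microglia sorted from pooled embryonic rat hippocampi gave 1 droplet library per group. The deposited matrices hold raw UMI counts per gene and barcode, 32623 genes, made by the authors with Cell Ranger 7.0.0 against Rnor_6.0, per the submitters' processing notes. Whether intronic reads were counted is not given in the sources used here. There were 4328 barcodes in the dexamethasone library, with 42611920 UMIs in all, and 8342 in the control library, with 69940778. Nothing in the labels gives a replicate.

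Counts were summed over cells of a group and scaled to CPM, in Python 3.11.15 with numpy 2.4.6 and scipy 1.17.1. Log2 ratios have exact conditional binomial intervals, shares exact Clopper-Pearson intervals and CPM exact Poisson intervals, all at 95% and for counting error only. A group at 0 stood at a floor of 3 counts. Genes were named by a rule: at least 50 CPM, called, no clone-type name, the 15 highest and 15 lowest mean log2 ratios of high cells over the rest, the 12 highest and 12 lowest between libraries, and the 4 largest differences of ratios each way. Each list added its 3 most abundant members and its 2 of largest ratio at 20 CPM or more. Other genes are named as called members of a list. The members and the 30 gene lists were chosen with earlier results of these data known. Of 677 distinct list genes, 654 matched a symbol and 23 are not analysed here. Some genes that stay in the counts are not reported here by value. No doublet caller was run. The procedures were tested on simulated data. Promoter windows and gene lengths are from RefSeq, GRCr8.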

Additional observations from a re-analysis of the deposited data

Results flagged for a closer look

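Ccl2 was higher in the high cells than in the rest in the dexamethasone library and lower in the control library, and the log2 ratios differed by 1.59. The levels were 111 against 79.9 CPM and 28.6 against 61.8 CPM. Without the cell of most Ccl2 UMIs in each group the 2 log2 ratios were 0.07 and -1.52. With 1 library each, this difference was not tested.

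The globin genes were lower in the dexamethasone than in the control library in the high cells and higher in the rest. The log2 ratio in the high cells minus that in the rest was -3.32 for Hba-a1, -3.39 for Hba-a2, -3.02 for Hbb and -3.06 for Hbb-bs, and these differences were not tested. Hba-a1 was at 100.03 and 202 CPM in the high cells of the dexamethasone and control libraries, and at 1361 and 275 CPM in the rest. In the rest, 1 cell held 27.9% of the Hba-a1 UMIs in dexamethasone and 1 cell 35.1% in control. Without the top cells Hba-a1 was at 983 CPM in the dexamethasone rest and 179 CPM in the control rest, and the ratio of high cells over the rest in the control library moved from -0.44 to 0.17.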

How the results depend on the processing

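No paired analysis was possible because each group is 1 library. In each of the 14 alternatives that gave a value for them, the 30 genes named for high cells against the rest kept the sign of their mean log2 ratio, and so did 23 of the 24 genes named between the libraries. A kept sign is not an unchanged result. Of 162 gene results for high cells against the rest, 72 moved and 0 reversed in thinned cells, and 43 moved and 1 reversed without a cycling filter. Of 62 list medians, 24 moved in thinned cells. Cells thinned to 3800 UMIs gave 118 genes higher in the high cells and 70 lower, with shares of high cells of 26.6% and 34.9% in the dexamethasone and control libraries. Both shares are above 25%, because thinned cells tied at the cut were all taken, so these high cells are a wider class than the main one. Choosing and reading cells on separate UMIs gave 247 and 135. A 1.5-fold size gave 130 and 109, and 233 and 208 genes higher and lower in the dexamethasone library, where a minimum of 200 UMIs gave 245 and 229. With 6 further cycling genes at 0 UMIs 266 were higher and 92 lower, without a cycling filter 375 were lower, and with the stricter microglia gate 297 were higher. Shares of high cells were 14.3% and 22.9% for the top 20%, 26.3% and 36.4% for the top 33%, and 25.04% and 25.03% by construction when cut in each library. Fewer cells, fewer UMIs or a larger size make fewer calls, and further causes were not tested. Alternatives that change the cells, their UMIs or the minimum can also change how many genes were measured, which is not given here. Their counts of called genes are therefore not shares and cannot be set against those of the main setting. Signs reversed for Aurka, high cells against the rest, at -0.063 without a cycling filter, and between the libraries for Ccl4, at -1.32 for the top 33% and -0.87 when thinned, and Spp1, at 0.026 on separate UMIs. With 1 library a group, no alternative shows how far embryos differ.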

Other observations

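The rest held a small set of cells with Cd8a, in which the axon-tract genes Spp1, Gpnmb, Csf1 and Igf1 were higher than in the rest without Cd8a. The cells without Cd8a had UMIs of these genes as well. This split was made after the values were seen, and it describes cells of 1 library per group. In the dexamethasone library 177 of the 1158 remaining cells had a Cd8a UMI, and in the control library 307 of 2069. Spp1 was at 1865 CPM in the dexamethasone and 1567 CPM in the control cells with Cd8a, against 173 and 176 CPM in those without. Csf1, the ligand of the receptor that the high cells had more of, was at 194 and 150 CPM, against 25.5 and 22.5 CPM. Gpnmb was at 922 and 757 CPM, against 184 and 146 CPM, and Igf1 at 1445 and 1528 CPM, against 574 and 501 CPM.

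Of the rule genes, P2ry12, P2ry13 and Tmem119 were lower in the cells with Cd8a than in those without, and Gpr34 was not. The rest was itself cut by the summed share of these genes, and C1qa is a gate gene. Genes of the high cells outside the rule and the gates are not given for this split. P2ry12 was at 69.2 and 83.4 CPM in the cells with Cd8a, against 151 and 186 CPM. Gpr34 was at 230 and 257 CPM, against 226 and 219 CPM, and C1qa at 8309 and 5775 CPM, against 8952 and 6508 CPM. The cells with Cd8a had medians of 11902 and 11479 UMIs, against 7976 and 7041, and a deeper cell is more likely to show a UMI. Spp1 in the rest without Cd8a, at 173 and 176 CPM, was above its level in the high cells of 38.2 and 83.5 CPM. Cd8b was at 17.2 and 20.9 CPM in the rest and at 1.61 and 2.46 CPM in the high cells.

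Longer genes were higher in the high cells. Genes called higher had a median length of 41.2 kb (418 of 454 with a length), those called lower 10.7 kb (200 of 216) and all measured genes 23.7 kb. From the shortest to the longest of 4 equal groups of genes, the median log2 ratio of high cells over the rest was -0.05, 0.06, 0.13 and 0.23 in the dexamethasone library and -0.05, 0.04, 0.10 and 0.18 in the control library. In cells thinned to 3800 UMIs the shortest and the longest group were at -0.08 and 0.17, and at -0.04 and 0.11. Between the libraries, genes called higher in dexamethasone high cells had a median length of 21.9 kb and those called lower 26.9 kb.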
